A study of Homo sapiens with 6 samples.

Results

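Long borders are the positions at which a long stretch of active chromatin meets a long stretch of inactive chromatin. Here they are the 455 positions on chromosomes 1 to 22 at which an A interval and a B interval of HCT116, each at least 500 kb long, touch without a gap. They were chosen by the sign of the HCT116 compartment track alone and make up 11.9% of the 3829 borders in that track. The A compartment is the gene-rich, early replicating part of the genome, which contacts other A regions more than B regions. The B compartment is gene-poor and late replicating, lies largely at the nuclear lamina and nucleolus, and is where cancer cells lose much of their DNA methylation. A border between long intervals is therefore a place where neighbouring DNA passes from one nuclear environment to the other, and such places often coincide with the edges of domains, which are stretches whose parts contact each other more often than they contact neighbouring DNA.

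The compartments were measured by Hi-C, in which chromatin is fixed, cut and religated so that sequenced junctions report which parts of the genome were close to each other. The series has 6 Hi-C libraries, 3 from DKO1 and 3 from HCT116. DKO1 is a derivative of HCT116 with the DNA methyltransferase genes DNMT1 and DNMT3B knocked out, and HCT116 is an established human colorectal cancer line that serves here as the wild type. Both lines were grown in the same serum-supplemented medium, with no treatment named.

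The 3 libraries of a line share 1 deposited compartment track and 1 deposited domain list, so every value below is a single value per line with no replicate error, and no test between the lines was possible. The files hold no counts, so the depth of the maps is unknown, and no reading of them checks the cell line or the knockouts. With 1 derived line, the knockouts cannot be told apart from any other difference between DKO1 and HCT116. Compartments come from PC1, the first principal component of the contact map in bins of 20 kb, which the authors gave in SD units with a mean of 0 on every chromosome. Bins above 0 were called A and bins below 0 were called B. Between bins that follow one another the median absolute change in PC1 was 0.0768 in DKO1 and 0.0644 in HCT116, so the DKO1 track is the rougher one, and it changed sign 4804 times against 3829 times in HCT116.

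The long borders were evenly divided by orientation, with A at the lower coordinates in 227 and B at the lower coordinates in 228. The A intervals beside them had a median length of 1540 kb (quartiles 860 and 2600 kb) and reached 14080 kb. The B intervals had a median length of 1440 kb (quartiles 900 and 2230 kb) and reached 10320 kb. Together the borders touched 356 A intervals with a summed length of 732.9 Mb and 364 B intervals with a summed length of 669.3 Mb. An interval can carry a long border at each end, and 286 of the 455 shared an interval with another, so they are not independent of each other. All positions are those of hg19 and give the last base of the bin before the sign change.

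The 500 kb minimum falls in a continuous range of lengths. The shorter interval was exactly 500 kb at 12 long borders, and 14 borders stood just outside with 480 kb. Just inside, the border at 27100000 on chromosome 4 had an A interval of 2240 kb and a B interval of 500 kb, and its DKO1 counterpart lay 60 kb away. The border at 42060000 on chromosome 5, with an A interval of 500 kb and a B interval of 560 kb, had its counterpart at 0 kb. Just outside, the border at 65720000 on chromosome 3 had an A interval of 480 kb and a counterpart 180 kb away. The border at 182400000 on chromosome 3 had a B interval of 480 kb and a counterpart 60 kb away.

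Most long borders were still present in DKO1 at nearly the same place. For each one the nearest DKO1 sign change of the same orientation was taken as its counterpart. The counterpart lay at the same bin edge for 89 borders (19.6%), within 20 kb for 215 (47.3%) and within 40 kb, which is 2 bins, for 288 of 455 (63.3%, Wilson 95% interval 58.8 to 67.6%, counting of borders only). Over all HCT116 borders the share within 40 kb was 33.4%, and over the 3374 borders that are not long it was 29.3%. The median distance was 40 kb (quartiles 20 and 80 kb) for long borders and 140 kb for the other borders. Within 100 kb 368 long borders (80.9%) had a counterpart, within 200 kb 419 (92.1%) and within 500 kb 443 (97.4%), against 78.0% of the other borders within 500 kb. The remaining 12 had none within 500 kb.

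The same choice made in the DKO1 track gave similar distances. DKO1 had 376 borders between intervals of at least 500 kb, and 226 of them (60.1%) had an HCT116 sign change of the same orientation within 40 kb, with a median distance of 40 kb. The borders just past the length minimum also resembled the ones just short of it. Of 84 long borders whose shorter interval was 500 to 600 kb, 51 (60.7%) had a counterpart within 40 kb, and of 100 other borders with a shorter interval of 400 to 480 kb, 59 (59.0%) did.

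The rule fixes the HCT116 track at 1 sign change within 200 kb of a long border, so only the DKO1 count is described here and the lines are not compared. In DKO1 308 long borders (67.7%) had exactly 1 sign change within 200 kb, 40 had 2, 71 (15.6%) had 3 or more and 36 had 0. With the roles exchanged, 288 of the 376 long borders of DKO1 (76.6%) had exactly 1 HCT116 sign change within 200 kb.

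The displaced borders went in both directions in nearly equal numbers. Of the 354 counterparts that lay 20 to 500 kb away, 165 (46.6%, Wilson 95% interval 41.5 to 51.8%) were on the A side, so that the B interval was longer in DKO1, and 189 were on the B side, so that the A interval was longer. Over all displaced HCT116 borders 53.5% had their counterpart on the A side, and over the displaced borders that are not long 54.5% did. Among displacements of at least 100 kb, 43 were on the A side and 51 on the B side, and among those of at least 200 kb, 12 and 17 were. The median size was 40 kb in either direction. Added up over displacements up to 500 kb, B gained 12240 kb and A gained 13900 kb.

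The direction depends on where 0 is placed. PC1 is centred per chromosome, so any change in the centre of a chromosome moves the places where its track crosses 0. With the median of each chromosome subtracted from both tracks, which gave a newly chosen set of 438 long borders, the share on the A side was 32.1%. With each line's border placed where PC1 crosses its own middle level between the flanks, an alternative added after seeing the data, it was 57.4% (183 on the A side and 136 on the B side). The shift that gave the highest correlation between the DKO1 and HCT116 profiles, which does not use the level at all, placed 146 on the A side and 141 on the B side, or 50.9%. No side was therefore preferred under every way of placing the border. By the shift of highest correlation 168 long borders had not moved and 384 (84.4%) were within 40 kb. Of the 354 counterparts displaced at the zero line, 167 had a shift to the same side, 70 to the opposite side, and 117 had a shift of 0.

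**Figure D1:**
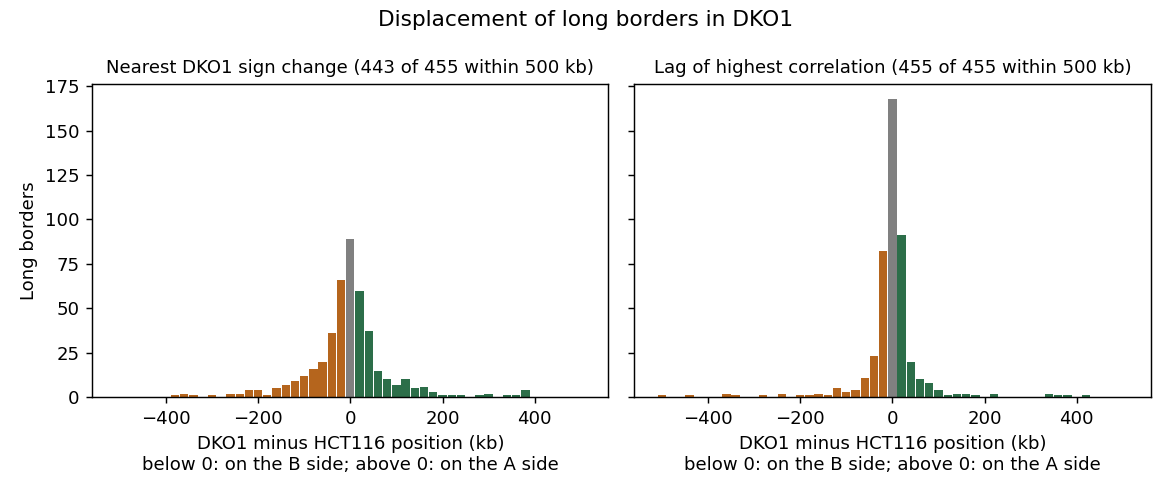
The histograms count long borders by DKO1 minus HCT116 position in kb, with positions on the B side below 0 in brown, positions on the A side above 0 in green and unmoved borders in grey, for the nearest DKO1 sign change (left, 443 borders within 500 kb) and for the shift of highest correlation (right, 455 borders). The bar at 0 holds 89 borders on the left and 168 on the right, and both histograms extend to either side.

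Intervals that carry a long border at each end were about as often longer as shorter in DKO1 with PC1 as deposited. Of 95 such A intervals with both counterparts within 500 kb, 15 lost length at both ends in DKO1, 20 gained at both ends, 22 lost at one end and gained at the other, and 38 were unchanged at one or both ends. The net change had a median of 0 kb (quartiles -60 and 80 kb), with 42 longer and 40 shorter in DKO1. This differed with the centring. With the median of each chromosome subtracted and the long borders chosen anew, the net change of A intervals had a median of 40 kb. Of 89 such B intervals 22 lost length at both ends, 19 gained at both ends and 13 did one of each. Their net change also had a median of 0 kb (quartiles -60 and 60 kb), again with 42 longer and 40 shorter.

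The rise of PC1 from B to A was less steep in DKO1 at more long borders than not. The slope was fitted by least squares over 200 kb on each side of the HCT116 position. It had a median of 0.45 PC1 units per 100 kb in DKO1 (quartiles 0.32 and 0.61) and 0.53 in HCT116 (quartiles 0.40 and 0.65). It was lower in DKO1 at 284 of 455 long borders (62.4%), against 55.1% of all HCT116 borders with a slope. The median of the ratio of DKO1 to HCT116 slope was 0.90. Taken at the DKO1 counterpart instead, the DKO1 slope had a median of 0.46 over 443 borders and was lower than the HCT116 slope at 264 of them (59.6%).

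This comparison is tied to the line in which the borders were chosen. At the 376 long borders chosen in the DKO1 track by the same rule, the slope had a median of 0.53 in DKO1 and 0.48 in HCT116, the median ratio was 1.13, and 131 (34.8%) had a lower slope in DKO1. The line that chose the borders was thus the steeper one both times, and these slopes do not show a general flattening of long borders in DKO1. Across the 455 borders the slopes of the lines went together, with a Pearson r of 0.62 and a Spearman rho of 0.63. This is a description across borders, which share their tracks and in part their intervals.

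Further from the border, at the long borders chosen in HCT116, the lines differed more in B than in A. The mean PC1 over the stretch 200 to 500 kb inside the A interval had a median of 0.88 in DKO1 and 0.88 in HCT116, and it was lower in DKO1 at 236 borders (51.9%), against 55.2% of all single A bins of HCT116. Over the stretch 200 to 500 kb inside the B interval the median was -0.84 in DKO1 and -1.05 in HCT116. There PC1 was less negative in DKO1 at 317 long borders (69.7%), with a median difference of 0.17. Over all single B bins of HCT116 PC1 was less negative in DKO1 in 57.4%, with a median difference of 0.08, in the same direction. A stretch is a mean over many bins, so its share is not on the same footing as that of single bins. At the long borders chosen in DKO1 this difference was nearly absent by count: the B stretch had a median of -0.86 in DKO1 and -0.94 in HCT116 and was less negative in DKO1 at 195 of 376 (51.9%). How much of the difference in the B stretch comes with choosing the borders in HCT116 was not tested. At the long borders chosen in HCT116 this difference, DKO1 minus HCT116, was uneven over the chromosomes. It ranged from -0.21 on chromosome 22 to 1.19 on chromosome 13. On chromosome 20 the A stretch differed more, with -0.40 in A and 0.01 in B. PC1 is scaled per chromosome in each line, so these levels are relative to their chromosome.

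**Figure D2:**
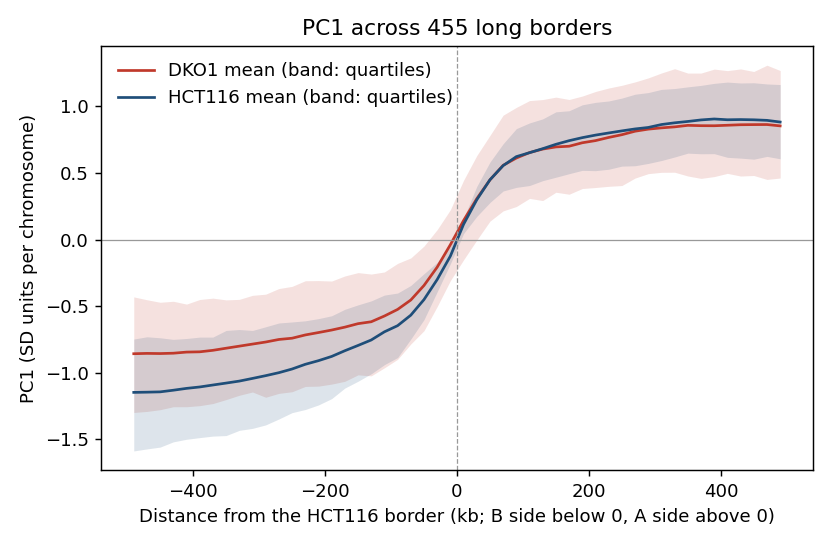
Mean PC1 in SD units is drawn against the distance from the HCT116 border in kb, with the B side below 0 and the A side above 0, for DKO1 (red) and HCT116 (blue), and the bands span the quartiles over 455 long borders. The curves overlie each other on the A side, while at the far end of the B side the mean is -0.86 in DKO1 and -1.15 in HCT116.

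At 394 long borders (86.6%) the DKO1 stretches still had the HCT116 arrangement, with the A stretch above 0 and the B stretch below 0. In HCT116 the rule fixes this arrangement at every long border. No share over other borders stands beside it, so the share is not read as high or low. At 33 borders both stretches were above 0 in DKO1 and at 27 both were below 0. These 60 places, although of 1 sign in DKO1, mostly kept a difference in level. The step, the mean PC1 of the 200 kb on the A side minus that of the 200 kb on the B side, was above 0 in DKO1 at 32 of the 33 and had a median of 0.69 in DKO1 and 1.18 in HCT116. At the 27 it was above 0 in DKO1 at 26, with medians of 0.59 in DKO1 and 0.93 in HCT116. The remaining border, at 36480000 on chromosome 13 and named after its values were seen, had the reversed arrangement. Its A stretch was at -0.44 in DKO1 and 0.69 in HCT116, its B stretch at 0.39 in DKO1 and -1.64 in HCT116, and the step next to the border was still 0.54 in DKO1 and 1.56 in HCT116.

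Nearly all far displaced borders still had a step in DKO1, with a lower median than in HCT116. Of the 41 with a counterpart 200 kb or more away, or with none within 500 kb, 40 had a step above 0 in DKO1, with a median of 0.48 in DKO1 and 0.93 in HCT116. No share over all long borders stands beside the 40 of 41, so it is not read as particular to these borders. Over all long borders the median ratio of DKO1 to HCT116 step was 0.89. How much of the lower step comes with choosing the borders in HCT116 was not tested. The shift of highest correlation was within 40 kb for 27 of the 41, against 84.4% of all long borders, and 0 for 10. At 15 of the 41 both stretches were above 0 in DKO1 and at 10 both were below 0.

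The largest displacements up to 500 kb illustrate this. Toward the A side they were 380 kb at 62000000 on chromosome 3, at 13820000 and 21120000 on chromosome 10 and at 50780000 on chromosome 20, and 360 kb at 94720000 on chromosome 4. At 50780000 on chromosome 20 the A stretch had a mean PC1 of -0.45 in DKO1 and 0.56 in HCT116, and the shift of highest correlation was -20 kb. At 13820000 on chromosome 10 the A stretch was at 0.08 in DKO1 and 0.99 in HCT116, with a shift of -40 kb. In contrast the border at 21120000 on chromosome 10 had a shift of 380 kb, equal to its displacement. Placed at the middle level of both lines, it lay 220 kb further into the A interval in DKO1.

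Toward the B side the displacements were 380 kb at 5960000 on chromosome 4, 360 kb at 221480000 on chromosome 2 and at 157380000 on chromosome 7, 340 kb at 52120000 on chromosome 6 and 300 kb at 106760000 on chromosome 8. At 5960000 on chromosome 4 the B stretch had a mean PC1 of 0.11 in DKO1 and -1.47 in HCT116, with a shift of -40 kb. At 52120000 on chromosome 6 the B stretch was at 0.03 in DKO1 and -1.51 in HCT116, with a shift of -160 kb. The border at 221480000 on chromosome 2 had a shift of -280 kb, but at the middle level of both lines it lay 60 kb to the opposite side. Of these 10 borders, 3 thus had a shift of highest correlation of at least 160 kb to the side of the displacement. The others had a smaller shift or one to the opposite side.

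The 12 long borders with no counterpart within 500 kb were 5 on chromosome 13, 2 on chromosome 3 and 1 each on chromosomes 1, 4, 9, 11 and 17. At 6 of them, the ones on chromosome 3 and 4 on chromosome 13, both stretches were above 0 in DKO1, and at the other 6 both were below 0. The step stayed above 0 in DKO1 at 11, with a median of 0.55 in DKO1 and 0.83 in HCT116. At 193300000 on chromosome 3 the step was 0.82 in DKO1 and 1.32 in HCT116 at a shift of 0 kb, while the B stretch was at 0.25 in DKO1 and -0.92 in HCT116. At 169440000 on chromosome 3 the step was 0.84 in DKO1 and 0.93 in HCT116, with a B stretch of 0.41 in DKO1 and -0.68 in HCT116. Both places still had a step, a lower one than in HCT116, and lay above 0 on both sides in DKO1.

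Chromosome 13 had 4 of these borders in succession. In HCT116 PC1 alternated between B and A there. From 74980001 to 75760000 the mean PC1 was 0.62 in DKO1 and -0.61 in HCT116. From 75760001 to 76460000 it was 1.51 in DKO1 and 0.94 in HCT116. From 76460001 to 77340000 it was 0.70 in DKO1 and -0.81 in HCT116, and from 77340001 to 78080000 it was 1.24 in DKO1 and 0.61 in HCT116. The B intervals of HCT116 are thus the troughs of a continuous A stretch in DKO1, with every bin of these 4 intervals above 0. In the next interval, from 78080001 to 79200000, the mean was 0.41 in DKO1 and -1.39 in HCT116, and 82.1% of its bins were above 0 in DKO1. No domain of the DKO1 list touched any of the 5 intervals, whereas in the HCT116 list each was touched by 1 to 3 domains. The lack of DKO1 domains was not particular to these intervals. The nearest boundary of the DKO1 list was 20040 kb from the border at 75760000 and 18460 kb from the border at 77340000. The shift of highest correlation was 0 kb at 75760000, -60 kb at 76460000 and -80 kb at 77340000, and at 78080000 it reached the search limit of -500 kb. The step was lower in DKO1 at all 4, with 0.82 in DKO1 and 1.49 in HCT116 at 75760000, and 0.71 in DKO1 and 1.36 in HCT116 at 76460000. It was 0.35 in DKO1 and 0.79 in HCT116 at 77340000, and 0.15 in DKO1 and 1.35 in HCT116 at 78080000.

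**Figure D3:**
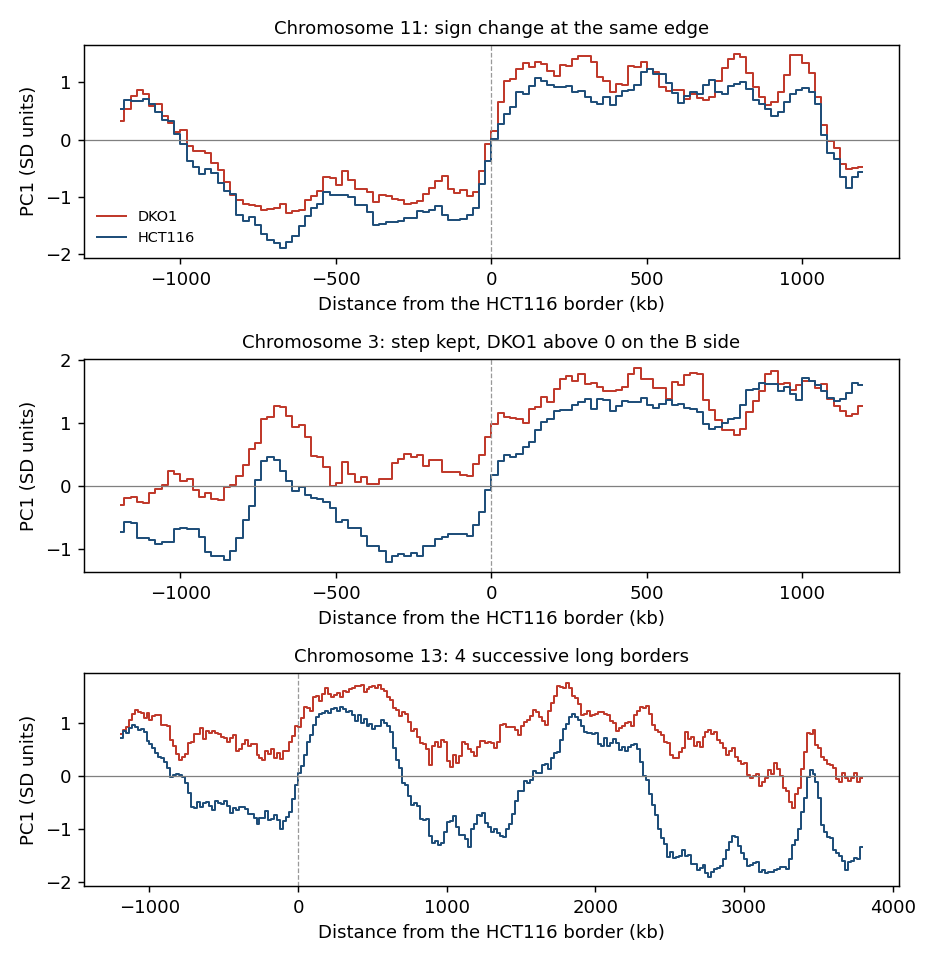
PC1 in SD units is drawn in 20 kb bins against the distance from an HCT116 border in kb for DKO1 (red) and HCT116 (blue): the border at 124480000 on chromosome 11, with the same edge in both lines, the border at 193300000 on chromosome 3, and 4 successive borders from 75760000 on chromosome 13. On chromosomes 3 and 13 the DKO1 line also rises across the border drawn at 0 kb, from a level that is above 0 in DKO1 and below 0 in HCT116.

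Chromosome 13 as a whole had the highest median displacement, 80 kb, with 9 of its 22 long borders within 40 kb. Its median slope was 0.28 in DKO1 and 0.63 in HCT116, and its B stretch had a median of 0.08 in DKO1 and -1.25 in HCT116. Chromosomes 5, 6 and 9 followed with medians of 60 kb. Chromosome 6 had 8 of 25 long borders within 40 kb, with 5 counterparts on the A side and 18 on the B side, and chromosome 5 had 17 of 35 within 40 kb. At the low end 10 chromosomes had a median of 20 kb, among them chromosome 3 with 17 of 27 within 40 kb, chromosome 8 with 26 of 36 and chromosome 11 with 17 of 22.

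The near balance of directions over the genome was made of chromosomes that differed from each other. Counterparts were more often on the A side on 9 chromosomes and more often on the B side on 12. The following were picked after their values were seen. On chromosome 16 the counterpart was on the A side at 15 borders and on the B side at 1, and on chromosome 15 at 8 and 0. On chromosome 7 it was on the A side at 3 and on the B side at 16, and on chromosome 4 at 4 and 15. The shifts of highest correlation were less one-sided, with 9 on the A side and 3 on the B side on chromosome 16, 4 and 0 on chromosome 15, 4 and 8 on chromosome 7, and 7 and 12 on chromosome 4. With the chromosome medians subtracted the long borders were chosen anew. Their counts on the A and B sides were 9 and 12 on chromosome 16 and 2 and 4 on chromosome 15. They were 2 and 16 on chromosome 7, and 7 and 17 on chromosome 4. On chromosomes 15 and 16 the more frequent side thus differed with the centring, over sets of borders that need not be the same.

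**Figure D4:**
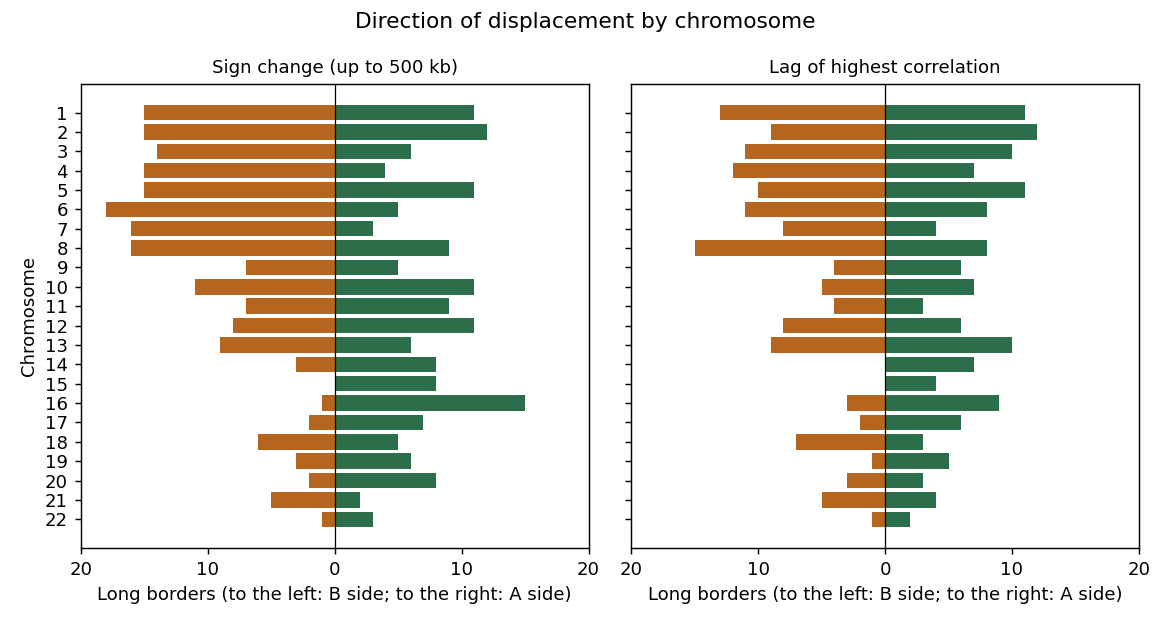
Bars count the displaced long borders of each chromosome, from 1 at the top to 22 at the bottom, whose DKO1 position lies on the B side (brown, to the left) or on the A side (green, to the right), by the nearest sign change up to 500 kb (left) and by the shift of highest correlation (right). Chromosomes 4, 6 and 7 lean to the B side and chromosomes 15 and 16 to the A side, more by the sign change than by the shift.

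Steep borders kept their place better than shallow ones. The 455 were divided into 3 groups of nearly equal size by their HCT116 slope. Of the 152 shallowest, with a median HCT116 slope of 0.35, 44.7% had a counterpart within 40 kb and the median displacement was 60 kb. Of the 151 in the middle 70.2% did, with a median of 40 kb, and of the 152 steepest, with a median HCT116 slope of 0.69, 75% did, with a median of 20 kb. By the shift of highest correlation the shares within 40 kb were 70.4%, 91.4% and 91.4%. A given difference in level moves a zero crossing further where the slope is low, and the part this has in the trend was not tested.

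Of the 5 steepest long borders in DKO1 3 lay on chromosome 5, whose long borders had a median slope of 0.40 in DKO1 and 0.55 in HCT116. The slope was 1.35 in DKO1 and 1.07 in HCT116 at 159880000, 1.22 in DKO1 and 0.90 in HCT116 at 154440000, and 1.08 in DKO1 and 0.92 in HCT116 at 170700000 on that chromosome. The border at 20880000 on chromosome 2 had 0.97 in DKO1 and 0.69 in HCT116, and the border at 27100000 on chromosome 8 had 0.97 in DKO1 and 0.70 in HCT116. These 5 borders, chosen for a steep DKO1 slope, were all steeper in DKO1, and their counterparts lay within 20 kb.

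The largest gains in slope were at 16960000 on chromosome 8, with 0.86 in DKO1 and 0.31 in HCT116, and at 121680000 on chromosome 10, with 0.97 in DKO1 and 0.63 in HCT116. Then came 26520000 on chromosome 8, with 0.82 in DKO1 and 0.48 in HCT116, the border at 154440000 on chromosome 5 named above, and 1620000 on chromosome 8, with 0.87 in DKO1 and 0.55 in HCT116. The borders at 26520000 and 27100000 on chromosome 8 are the ends of one B interval of 580 kb. The stretches 200 to 500 kb from either end, which overlap, had a mean PC1 of -1.50 and -1.46 in DKO1 against -1.05 and -0.95 in HCT116. The scaled PC1 of this short B interval was thus more negative in DKO1. Both ends were named for a steep slope or a gain in slope in DKO1, so this level is not independent of that choice.

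The largest losses in slope were at 13640000 on chromosome 4, with 0.22 in DKO1 and 1.03 in HCT116, and at 3 borders of chromosome 13. There the slope was 0.05 in DKO1 and 0.61 in HCT116 at 102420000, 0.09 in DKO1 and 0.63 in HCT116 at 78080000, and -0.07 in DKO1 and 0.45 in HCT116 at 32520000. The border at 106760000 on chromosome 8 had 0.10 in DKO1 and 0.62 in HCT116. At 13640000 on chromosome 4 the counterpart was still 40 kb away, but the A stretch was at -0.32 in DKO1 and 0.42 in HCT116 and the B stretch at -0.63 in DKO1 and -1.89 in HCT116, so both sides came closer to each other. A slope at or below 0 in DKO1 occurred at 3 of the 455 long borders.

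Long borders had a domain boundary nearby more often than bin edges did in both lists, which the rule did not use. A boundary is the start or end of a deposited domain, and the lists held 2903 boundaries in DKO1 and 6053 in HCT116 on these chromosomes, on a 40 kb grid. A DKO1 boundary lay within 40 kb of 89 long borders (19.6%, Wilson 95% interval 16.2 to 23.5%), against 10.7% of all bin edges and 7.71% of the other borders. An HCT116 boundary lay within 40 kb of 224 long borders (49.2%, Wilson 95% interval 44.7 to 53.8%), against 22% of all bin edges and 21.7% of the other borders. In both lists the share at long borders was above both backgrounds, and the lower DKO1 share goes with a shorter list. At the DKO1 counterpart instead of the HCT116 position, a DKO1 boundary lay within 40 kb of 81 of 443 (18.3%). The median distance to the nearest boundary was 400 kb in the DKO1 list and 60 kb in the HCT116 list.

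**Figure D5:**
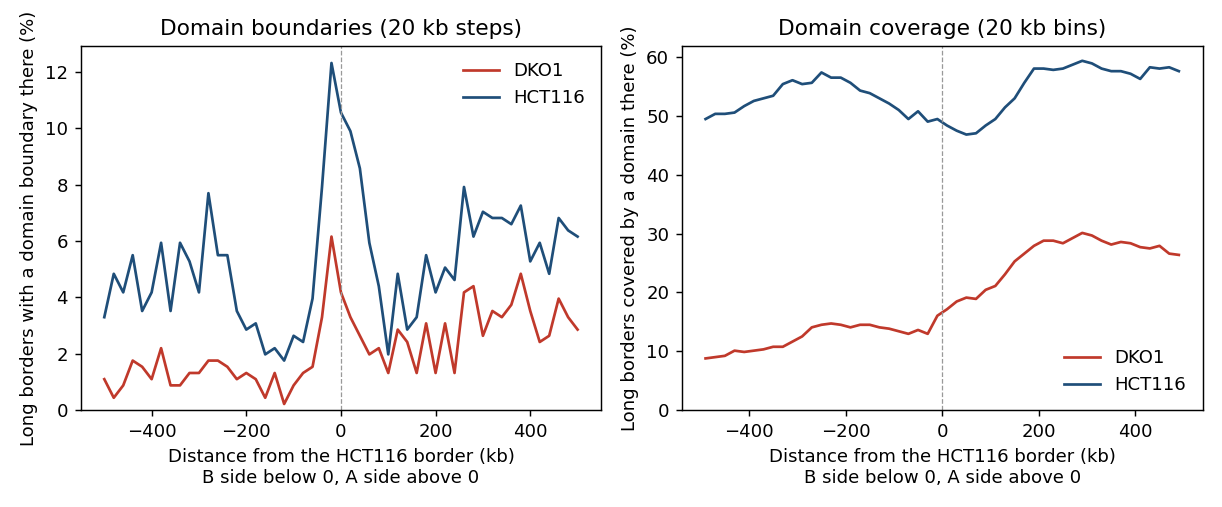
The percentage of the 455 long borders with a domain boundary at each distance (left, steps of 20 kb) and the percentage covered by a domain in each 20 kb bin (right) are drawn against the distance from the HCT116 border in kb, with the B side below 0 and the A side above 0, for DKO1 (red) and HCT116 (blue). Both lists peak within 20 kb of the border on the left, and on the right the DKO1 coverage is lower on the B side than on the A side while the HCT116 coverage is similar on both.

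Long borders with a DKO1 boundary mostly had an HCT116 boundary too. Both lists had a boundary within 40 kb at 85 long borders, the HCT116 list alone at 139, the DKO1 list alone at 4 and neither at 227. Of the 89 DKO1 boundaries within 40 kb of a long border, 86 (96.6%, Wilson 95% interval 90.6 to 98.8%) had an HCT116 boundary within 40 kb, against 92.5% of all DKO1 boundaries, which lies inside that interval. In the other direction, 224 HCT116 boundaries lay within 40 kb of a long border, a number that happens to equal the number of borders above, and 88 of them (39.3%, Wilson 95% interval 33.1 to 45.8%) had a DKO1 boundary within 40 kb. Over all HCT116 boundaries 45.2% did. The share differs by compartment, being 60.5% at HCT116 boundaries with PC1 above 0.5 and 22.4% at boundaries with PC1 below -0.5. Among HCT116 boundaries with PC1 between these levels, 74 of 194 near long borders (38.1%) and 477 of 1430 elsewhere (33.4%) had a DKO1 boundary within 40 kb. No test of that difference was made.

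The domains ending at long borders lay on different sides in the lists. In the DKO1 list 50 of the 89 borders with a boundary (56.2%) had a domain on the A side only, 26 (29.2%) on the B side only and 13 (14.6%) on both. In the HCT116 list 62 of 224 (27.7%) had one on the A side only, 81 (36.2%) on the B side only and 81 (36.2%) on both. These counts of sides stand without a share over other borders or boundaries, so they are not read as particular to long borders. Domains covered less of both sides in DKO1, and less of the B side than of the A side. Over the 200 kb next to the border domains covered 21.8% of the A side in DKO1 and 50.5% in HCT116, and 14.0% of the B side in DKO1 and 51.8% in HCT116. From 200 to 500 kb they covered 28.3% of the A side in DKO1 and 58.0% in HCT116, and 11.4% of the B side in DKO1 and 53.6% in HCT116. The DKO1 coverage at 200 to 500 kb was thus 48.9% of the HCT116 coverage in A and 21.3% in B. The contrast between A and B was not particular to long borders: over all A bins of HCT116 domains covered 28.4% in DKO1 and 53.3% in HCT116, and over all B bins 6.82% in DKO1 and 33.4% in HCT116. The A side of long borders at 200 to 500 kb was thus near the level of all A bins in DKO1, and the B side was above that of all B bins in both lists. Long borders seldom lay deep inside a domain: 24 (5.27%) were in a DKO1 domain at least 60 kb from its ends, against 12% of all bin edges, and 70 (15.4%) were so placed in an HCT116 domain, against 29.2% of all bin edges.

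Long borders with a domain boundary were steeper and less displaced than those without. Of the 224 with an HCT116 boundary within 40 kb, 158 (70.5%) had a DKO1 counterpart within 40 kb, and of the 231 without one, 130 (56.3%) did. Their Wilson 95% intervals, for counting of borders only, were 64.3 to 76.1% and 49.8 to 62.5%. The median slope at borders with an HCT116 boundary was 0.54 in DKO1 and 0.59 in HCT116, and at borders without one 0.38 in DKO1 and 0.47 in HCT116. The borders with a boundary in the HCT116 list only had a counterpart within 40 kb in 95 of 139 cases (68.3%, Wilson 95% interval 60.2 to 75.5%). Those with a boundary in both lists had one in 63 of 85 (74.1%, Wilson 95% interval 63.9 to 82.2%). Many long borders share an interval, so these counting intervals are no test, and no difference between the groups was tested. A DKO1 boundary was near 9.87% of the shallowest borders, 17.9% of the middle group and 30.9% of the steepest, and an HCT116 boundary was near 35.5%, 45.0% and 67.1%.

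Some steep long borders were at the same edge in both lines and had a boundary in both lists. The 5 steepest in HCT116 with a counterpart at the same edge and a boundary within 40 kb in both lists were at 133140000 on chromosome 3, 178600000 on chromosome 5, 51460000 on chromosome 7, 86980000 on chromosome 9 and 124480000 on chromosome 11. Their slopes ranged from 0.54 to 0.76 in DKO1 and from 0.80 to 0.87 in HCT116, so these borders, chosen for a steep HCT116 slope, were all less steep in DKO1. At 124480000 on chromosome 11 the slope was 0.76 in DKO1 and 0.80 in HCT116, and both lists had a boundary at that edge. At 159880000 on chromosome 5, the steepest long border of DKO1, both lists also had a boundary exactly at the border, and the counterpart lay 20 kb away. Near 42060000 on chromosome 5, a weak border with a slope of 0.22 in DKO1 and 0.27 in HCT116, the nearest boundary was 2500 kb away in the DKO1 list and 420 kb away in the HCT116 list, although the sign changed at the same edge in both lines. A counterpart at the same edge did not therefore require a listed boundary.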

How the data were processed

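PC1 tracks and domain lists of DKO1 and HCT116 were used as the authors deposited them, 1 of each per line. Per the labels, 1 set of files serves all 3 replicates of a line, which were therefore treated as pooled. The deposited PC1 score is given per 20 kb bin, and in the files it has a mean of 0 and an SD of 1 on each of chromosomes 1 to 22. A direction of displacement can therefore follow from that scaling. The domain lists hold starts and ends only. Per the submitters' processing notes HiC-Pro, HOMER 4.6 and hg19 (GRCh37) were used. Not given in the sources used here: the role of each, the domain caller and the read filters. Contact maps were not used here.

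Bins that follow one another without a gap and share a sign were joined into intervals. Distances, slopes (10 bins per side, at least 80% of them present), steps and flanks were computed with Python 3.11.15, numpy 2.4.6, pandas 2.3.3 and scipy 1.17.1, and no p-value was computed. The middle level of a line is halfway between its flank means, and the shift of highest correlation was searched up to 500 kb. The code was tested on simulated data, where 440 of 440 planted borders were found, 440 with the right zero crossing and 426 with the right shift. The simulated tracks had sharp steps, the same levels in both lines and little noise. The deposited tracks rise gradually and differ in level, so these counts do not give the accuracy on them.

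The borders, lists and choices were made with earlier results of these data known. Regions named are, per direction, the 5 largest displacements up to 500 kb, the 5 steepest in DKO1, the 5 largest losses and gains of slope, 5 without a counterpart by HCT116 step, the 5 steepest unmoved ones with boundaries in both lists, 2 borders on each side of the length minimum, and 3 chromosomes at each end of median displacement among those with at least 10 long borders. Regions named outside this rule were chosen after their values were seen. Gene tables at hand are on another build, so no gene and no sequence is given. Alternatives covered interval length, centring, smoothing, definitions of position and tolerances.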

Additional observations from a re-analysis of the deposited data

How the results depend on the processing

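All values are single values per line, and depth is unknown. Of 106 values under the alternatives, 81 moved by less than the counting interval of the main value (counts by less than 1.5 times) and 25 moved further. The number of long borders was 698 at a minimum length of 300 kb and 220 at 1000 kb. Centring and smoothing were applied before the borders were chosen, which gave 438 long borders with medians subtracted and 579 with smoothing. The share with a counterpart within 40 kb, 63.3%, was 70.9% at 1000 kb, 53.4% with tracks smoothed over 5 bins, 55.2% with sign changes that have at least 5 bins of one sign on each side, 69.8% at the middle level of DKO1, 84.4% by the shift of highest correlation and, added after seeing the data, 75.5% at the middle level of both lines. At tolerances of 0, 20, 100 and 200 kb it was 19.6, 47.3, 80.9 and 92.1%. The share on the A side was 32.1% with medians subtracted and 57.4% at the middle level of both lines, an added alternative. With medians subtracted, the net change of long A intervals had a median of 40 kb. The slope ratio was 1.13 at borders chosen in DKO1, also added. The share with a DKO1 boundary was 4.18, 13.6, 26.2 and 30.8% at 0, 20, 80 and 120 kb, beside 2.14, 6.42, 18.9 and 25.8% of bin edges. The share with an HCT116 boundary was 10.5, 32.7, 64.8 and 72.7% at these tolerances, beside 4.50, 13.4, 38.7 and 51.7%, and it was 43.9% after smoothing. For these changes, other than those of a tolerance or minimum length, the cause was not tested. Leaving out chromosomes 6, 7 and 13, which had a Pearson r under 0.8 between the tracks, was among the alternatives that moved no value this far. No paired analysis was possible because each line has 1 pooled track and list, and leaving out a replicate was not possible for the same reason.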
